A study of Homo sapiens with 2 samples.

Results

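The genes CCN1, CCN2, EDN1, ANKRD1, AMOTL2, TCIM and GPR183 were followed across the pooled OVCAR5 cells of the series, 7 of the 36601 genes in the deposited matrix. They were found by symbol. They had been chosen by their measured UMI levels across groups of these same cells, so their differences between those groups are given as a description and carry no test. CCN1, CCN2, ANKRD1 and AMOTL2 are established targets of YAP, and CCN1 and CCN2 are matricellular proteins, but TCIM and GPR183 are not standard members of either class. OVCAR5 is an ovarian carcinoma cell line, and per the labels these cells carried an IFNy-sensing reporter and were CFP+. A single pool was profiled by droplet single-cell RNA sequencing in 2 libraries, gene expression and antibody hashtags. The labels name 18 conditions in that pool. Interferon-gamma was added at 1, 10 or 100 ng/ml, or was not added, with time points at 2, 6, 12 and 24 h, and frozen cells of the 24 h unstimulated and 24 h 100 ng/ml conditions were included. The sources used here do not pair hashtags with conditions, and conditions were not inferred from expression, so the groups below have no known dose, time or state.

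The cells fell into 18 groups by which 2 of the 8 hashtags they carried, and each group is named by that pair, as in pair 1+2. Of 7804 barcodes, 7201 passed the cell filter and 6114 of these (84.9%) could be given a pair. Pairs held 166 to 493 cells and 5392185 to 16184801 UMIs (unique molecular identifiers, 1 per captured RNA molecule). Levels are given as CPM, the UMIs of a gene scaled to a common total for every pair. Each pair is 1 group of cells from 1 pool, so every interval is a 95% interval for counting error alone. The intervals of CPM and of ratios do not cover variation between cells, and no interval covers variation between cultures. Free RNA was not subtracted, and the lowest levels may include it. The pool had the keratins of an epithelial line, with KRT8 in 99.4% and KRT18 in 99.9% of cells and EPCAM in 69.6%, whereas MUC16 had 23 UMIs, WT1 had 11 and CDH1 was found in 1.78% of cells.

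YAP and TAZ are co-activators at the end of the Hippo pathway. The LATS kinases phosphorylate them and hold them in the cytoplasm, and when that mark is absent they enter the nucleus and act through DNA-bound TEAD factors. Spread cell shape, stiff substrate and low cell density are known to favour the nuclear form. CCN1 and CCN2 are secreted into the extracellular matrix and signal through integrins. ANKRD1 is an ankyrin repeat protein of muscle sarcomeres and nuclei, and AMOTL2 is an angiomotin family protein that binds YAP at cell junctions. EDN1 encodes the precursor of the vasoconstrictor peptide endothelin-1. TCIM is a small protein linked to Wnt signalling, and GPR183 is a receptor for oxysterols known for steering B cells and dendritic cells.

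Because YAP acts through TEAD, the letters of the TEAD core, GGAATG on one strand and CATTCC on the other, were searched in the 250 bases before each annotated start in RefSeq (GRCh38.p14). Windows of 5 of the 7 genes were searched (not CCN1 or TCIM), 8 windows in all. Of the 8 windows 4 held a match, and 4 of the 5 genes had at least 1 match in any of their windows. CCN2 had 3 matches, beginning at positions -169, -104 and -95 from the start, and ANKRD1 had 2, at -220 and -128. AMOTL2 had 1 at -69 in one of its windows, EDN1 had 1 at -129 in one of its windows, and GPR183 had none. Of all 35116 windows of this length, 11.9% held at least 1 match and 0.940% held 2 or more. The stretch before CCN2 (chr6:131951374-131951622, minus strand) is shown whole because it held the most matches, and the other genes are shown as 26 bases around each match; capitals mark the TEAD letters, and each sequence runs 5′ to 3′ on the gene's strand. The ANKRD1 sites are at chr10:90921292-90921317 and chr10:90921200-90921225 (minus strand), the AMOTL2 site at chr3:134374501-134374526 (minus strand) and the EDN1 site at chr6:12289875-12289900 (plus strand).
CCN2, before the start: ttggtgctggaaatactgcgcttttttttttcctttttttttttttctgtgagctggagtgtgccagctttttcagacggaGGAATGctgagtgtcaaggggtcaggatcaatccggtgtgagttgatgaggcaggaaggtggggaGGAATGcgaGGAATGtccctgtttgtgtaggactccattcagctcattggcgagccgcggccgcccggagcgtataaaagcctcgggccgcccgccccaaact
ANKRD1, site at -220: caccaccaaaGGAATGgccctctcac
ANKRD1, site at -128: cactgagtctGGAATGaaaattcacc
AMOTL2, site at -69: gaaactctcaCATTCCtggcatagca
EDN1, site at -129: cgagggagagCATTCCcttgtttgac
By the gene bounds of GENCODE 29, the ANKRD1 site at -128 and the AMOTL2 site lie inside the annotated genes. A match of 6 letters is a description of the window and does not show that TEAD binds there.

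Across the 18 pairs all 7 genes had the same 4 pairs on top: 1+2, 1+3, 1+4 and 1+6. In each of the 7 genes these 4 pairs lay above all 14 others, as they did in 5.57% of the 13921 genes with at least 100 UMIs. Pair 1+5, which also carried hashtag 1, was the lowest of the 18 for CCN1 and EDN1. Of the 7 genes, 5 (CCN1, CCN2, EDN1, ANKRD1 and AMOTL2) also had a middle step, with pairs 2+4, 2+6, 2+8 and 3+4 all above the remaining 10 (1.01% of the 13921 genes had both steps). All 7 genes spanned at least 4-fold between their highest and lowest pairs (a lowest count under 3 was read as 3), against 14.5% of the 13921 genes, of which 45.3% spanned 2-fold; with cells thinned to 10000 UMIs 5 of the 7 spanned 4-fold, as TCIM and GPR183 then had bounds of 3.75 and 3.46. Among genes with at least 2000 UMIs, 4 of 4 members did, against 3.45%. These groupings of pairs were read from the levels themselves, and the genes had been chosen for them, so nothing is concluded from these counts.

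**Figure D1:**
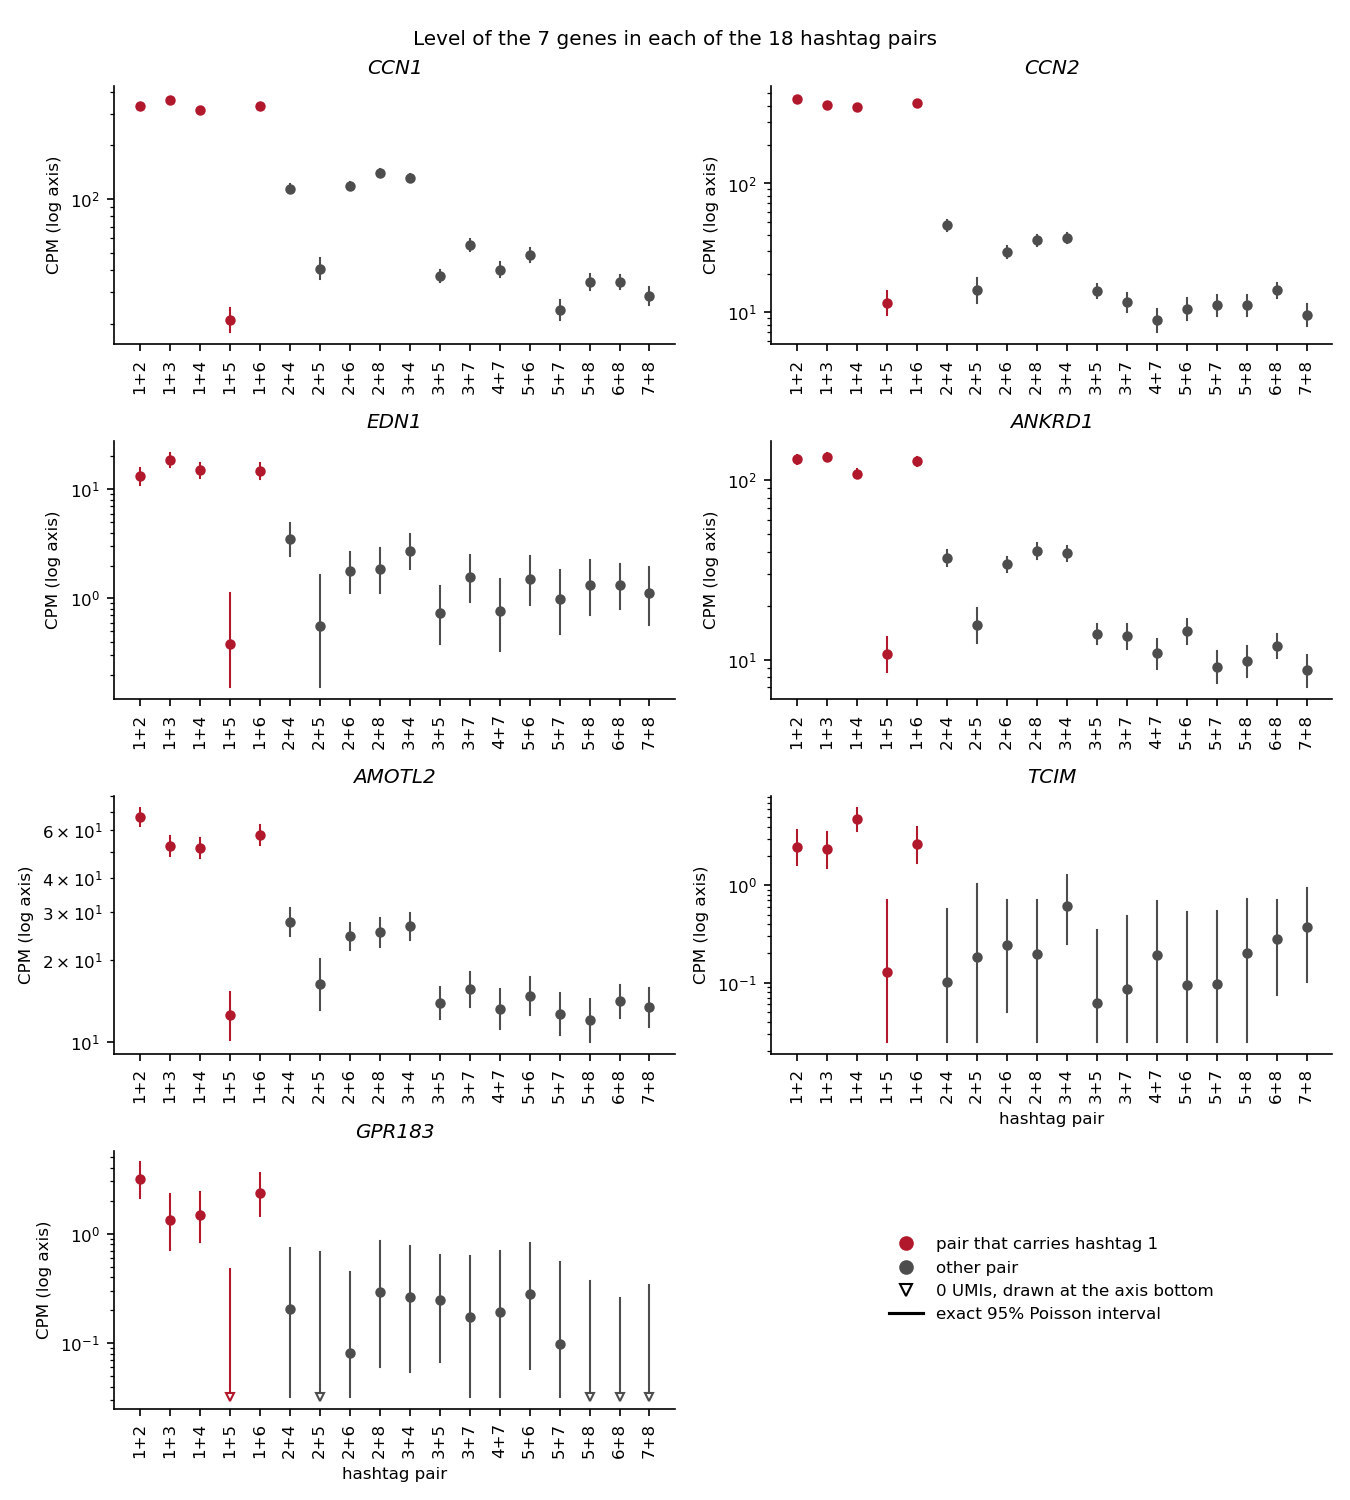
Level of each gene (CPM, log axis) in each of the 18 hashtag pairs with exact 95% Poisson intervals; red points carry hashtag 1, and open triangles are pairs with 0 UMIs. Pairs 1+2, 1+3, 1+4 and 1+6 were on top in every panel, with 392 to 449 CPM for CCN2, and pairs 2+4, 2+6, 2+8 and 3+4 formed a middle step in all panels except TCIM and GPR183.

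With lowest counts under 3 read as 3, CCN2 had the widest span of the 7, with an interval that overlapped that of EDN1. Its level was 449 CPM in pair 1+2, 419.5 in 1+6, 409 in 1+3 and 392 in 1+4. It was 47.3 CPM in 2+4, 37.8 in 3+4, 36.2 in 2+8 and 29.4 in 2+6, and 14.8 in both 2+5 and 6+8, 14.7 in 3+5, 12.0 in 3+7, 11.9 in 1+5, 11.4 in 5+7 and 5+8, 10.7 in 5+6, 9.53 in 7+8 and 8.72 in 4+7. The 3 steps did not overlap, and the top step was far wider apart from the middle one than the middle was from the rest. Pair 1+2 was 51.5-fold above pair 4+7 (95% interval 41.9 to 64.2), a span reached by 22 of the 13921 genes. CCN2 lies at chr6:131948176-131951373 on the minus strand (GRCh38, GENCODE 29, where it is named CTGF).

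CCN1, the other matricellular gene of the set, was spread more evenly over the 3 steps. It had 357 CPM in pair 1+3, 334 in 1+2 and 1+6 and 314 in 1+4. It had 141 CPM in 2+8, 132 in 3+4, 118 in 2+6 and 114 in 2+4, and then 55.4 in 3+7, 48.6 in 5+6, 40.6 in 2+5, 40.0 in 4+7, 37.1 in 3+5, 34.3 in 5+8, 34.2 in 6+8, 28.5 in 7+8, 23.8 in 5+7 and 21.0 in 1+5. Its span was 17.03-fold between pairs 1+3 and 1+5 (14.6 to 20.04). The order within the lowest step differed from that of CCN2: pair 3+7 led it for CCN1, at 1.49-fold over pair 3+5 (1.33 to 1.67), whereas CCN2 was 0.819-fold in the same comparison (0.659 to 1.01). CCN1 lies at chr1:85580761-85583962 on the plus strand, under the older name CYR61 in GENCODE 29.

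ANKRD1 (chr10:90912096-90921276, minus strand) had the same 3 steps as CCN1 at lower counts. Its level was 135 CPM in pair 1+3, 131 in 1+2, 128 in 1+6 and 109 in 1+4, and 34.0 to 40.3 CPM in the 4 middle pairs. The other 10 pairs had 8.70 to 15.6 CPM, with pair 2+5 highest and 7+8 lowest. The steps did not overlap, and the span was 15.5-fold (12.6 to 19.3). AMOTL2 (chr3:134355874-134375479, minus strand) had the same 3 steps with a narrower range. It had 67.1 CPM in pair 1+2, 57.5 in 1+6, 52.5 in 1+3 and 51.6 in 1+4, then 24.4 to 27.6 CPM in the middle pairs and 12.0 to 16.3 CPM in the other 10. Its span of 5.58-fold (4.58 to 6.84) was the smallest of the 7, and 6.74% of the 13921 genes reached it. Within the top step AMOTL2 was highest in pair 1+2, and pairs 1+3, 1+4 and 1+6 were 0.781-fold (0.694 to 0.879), 0.768-fold (0.684 to 0.861) and 0.856-fold (0.761 to 0.962) of it.

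EDN1 (chr6:12290363-12297194, plus strand) was a low gene with a wide span. It had 182 UMIs (18.8 CPM) in pair 1+3, 163 (15.01 CPM) in 1+4, 133 (14.8 CPM) in 1+6 and 127 (13.2 CPM) in 1+2. The middle pairs had 19 to 34 UMIs (1.78 to 3.496 CPM), and the other 10 had 3 to 19 UMIs (0.384 to 1.57 CPM). The top step stood clear of every other pair, while the middle and lowest steps came close to each other. Pair 1+3 was 48.9-fold above pair 1+5 (16.46 to 239), where 3 UMIs set the wide interval. EDN1 was the member in which pair 1+3 stood most above pair 1+2, at 1.42-fold (1.12 to 1.79).

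TCIM (chr8:40153455-40155308, plus strand) and GPR183 (chr13:99294530-99307405, minus strand) had 154 and 101 UMIs in all the pairs together, and their top step stood above all other pairs. TCIM had 52 UMIs (4.79 CPM) in pair 1+4, 24 UMIs in each of 1+6 and 1+2 and 23 in 1+3, against 1 to 7 UMIs in the other 14 pairs. Pair 1+4 was the highest and was 1.91-fold above pair 1+2 (1.16 to 3.25). TCIM was found in 5.91% of the unthinned cells of pair 1+4, and across the pairs a single cell held up to 11 TCIM UMIs. The interval does not cover such clumping, so few cells may set this lead. Against the single UMI of pair 3+5 the ratio of pair 1+4 was 77.5 (13.3 to 3119). That ratio counts as 25.8 among the spans, with the single UMI read as 3. GPR183 had 30 UMIs (3.13 CPM) in pair 1+2, 21 in 1+6, 16 in 1+4 and 13 in 1+3, against 0 to 4 UMIs in the others, 5 of which had 0. Pair 1+2 was at least 8.15-fold higher than pair 1+5, taking 3 UMIs per pair as the floor for the 0 UMIs there. GPR183 was thus highest in pair 1+2 and TCIM in pair 1+4, both within the same top step.

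IRF1, a transcription factor induced directly by interferon-gamma signalling, was set beside the 7 genes. It had 43.7 to 70.8 CPM in 5 pairs (2+4, 1+5, 1+2, 3+5 and 5+7) and 808 to 1357 CPM in the other 13. Each step of the 7 genes held pairs of both kinds: pair 1+2 had 57.9 CPM of IRF1 where 1+3, 1+4 and 1+6 had 1322, 1349 and 1357, and pair 2+4 had 43.7 where 2+6, 2+8 and 3+4 had 1012 to 1058. In pair 1+3 over pair 1+2, IRF1 was 22.8-fold higher (21.0 to 24.9), while CCN1 was 1.07-fold (1.02 to 1.12), CCN2 0.911-fold (0.872 to 0.951) and ANKRD1 1.03-fold (0.953 to 1.11). None of the 7 genes was at least 1.5-fold higher in 1+3 than in 1+2 (5.45% of the 13921 genes were), and GPR183 alone was at least 1.5-fold lower (5.87% were), at 0.428-fold (0.205 to 0.846). In the middle step, IRF1 was 23.1-fold to 24.2-fold higher in pairs 2+6, 2+8 and 3+4 than in pair 2+4. CCN1 was 1.03-fold (0.956 to 1.12), 1.23-fold (1.14 to 1.33) and 1.15-fold (1.07 to 1.25) in 2+6, 2+8 and 3+4 over 2+4. CCN2 was lower in all 3, at 0.621-fold (0.540 to 0.714), 0.766-fold (0.666 to 0.880) and 0.799-fold (0.698 to 0.913). EDN1 was 0.508-fold (0.283 to 0.894), 0.531-fold (0.286 to 0.957) and 0.781-fold (0.464 to 1.31) in the same order of pairs, and for ANKRD1 and AMOTL2 each of the 3 intervals held 1.

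Pairs 1+2 and 1+5, alike in IRF1, differed widely in the 7 genes. In pair 1+2 over pair 1+5, IRF1 was 1.08-fold (0.949 to 1.23), whereas CCN2 was 37.7-fold higher (30.7 to 46.9), CCN1 15.9-fold (13.6 to 18.7), ANKRD1 12.2-fold (9.76 to 15.4) and AMOTL2 5.35-fold (4.32 to 6.69). EDN1 had 127 and 3 UMIs in pairs 1+2 and 1+5, a ratio of 34.5 (11.5 to 169). All 7 genes were at least 4-fold higher in 1+2 than in 1+5, against 0.668% of the 13921 genes, with TCIM and GPR183 counted at the floor. Pairs 2+4 and 2+5 were not alike in IRF1, with 43.7 and 894 CPM. In pair 2+4 over pair 2+5 the ratio was 3.19 for CCN2 (2.51 to 4.10), 2.81 for CCN1 (2.43 to 3.27), 2.36 for ANKRD1 (1.86 to 3.03), 6.28 for EDN1 (1.98 to 32.0, with 3 UMIs in 2+5) and 1.69 for AMOTL2 (1.32 to 2.17). Thus 4 of the 7 genes were at least 2-fold higher in 2+4, against 6.13% of the 13921 genes. TCIM and GPR183 were under the floor of 3 UMIs in both pairs, so they could not be called. In the lowest step CCN1 differed between some pairs that differed in IRF1 and not beyond counting error between others. Pair 5+6 was 2.04-fold above 5+7 (1.75 to 2.39), with IRF1 at 995 and 70.8 CPM, and pair 2+5 was 1.94-fold above 1+5 (1.57 to 2.38), with IRF1 at 894 and 53.6 CPM. CCN2 gave 0.936-fold (0.716 to 1.22) and 1.25-fold (0.913 to 1.70) in those comparisons. Pair 3+5, one of the 5 pairs low in IRF1, had 0.913-fold the CCN1 of pair 2+5 (0.781 to 1.07) and 1.08-fold that of pair 5+8 (0.945 to 1.24), and its 37.1 CPM lay above the 34.2 and 28.5 CPM of pairs 6+8 and 7+8. CCN1 also differed between pairs that were both low in IRF1. Pair 3+5 was 1.77-fold above 1+5 (1.48 to 2.11) and 1.56-fold above 5+7 (1.34 to 1.82), with IRF1 at 60.4, 53.6 and 70.8 CPM. Pair 5+7 was 1.13-fold of 1+5 (0.926 to 1.39). Which condition each pair held is not known, so these are differences between labelled groups of cells and not responses to interferon-gamma.

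**Figure D2:**
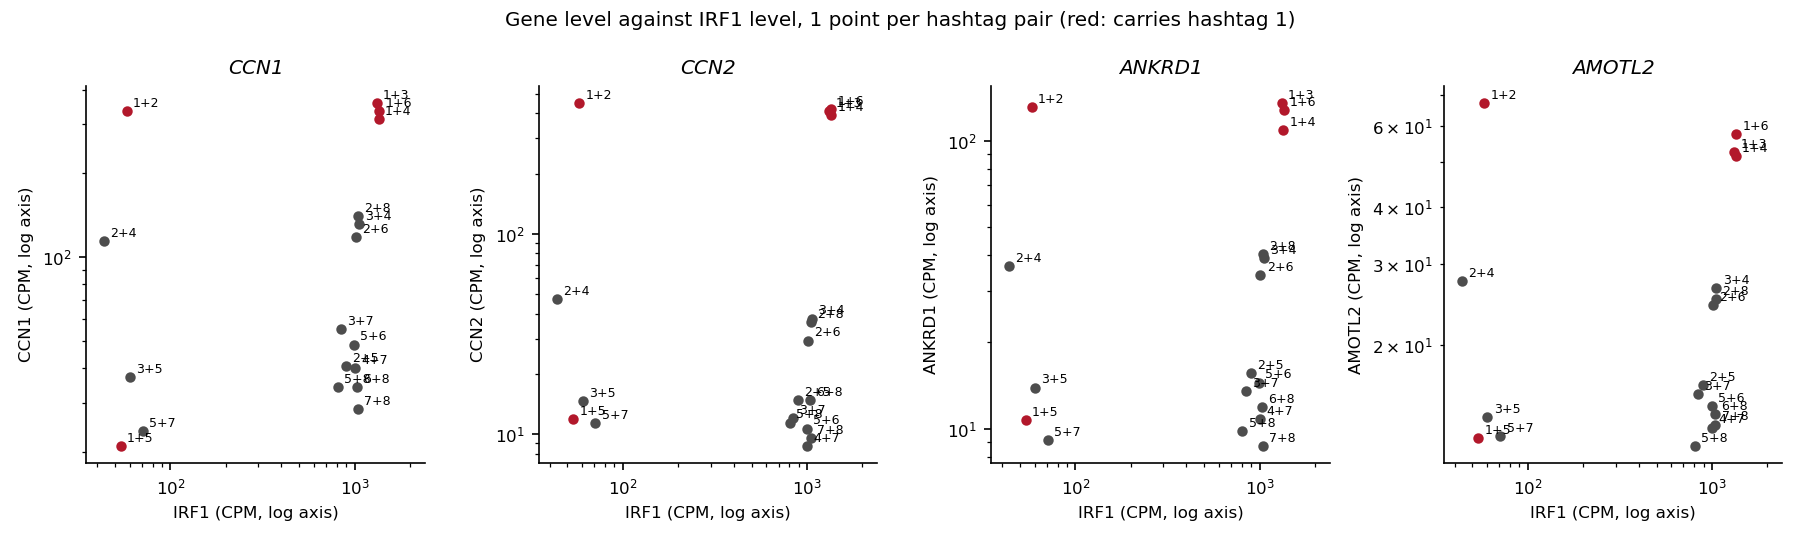
CPM of CCN1, CCN2, ANKRD1 and AMOTL2 against CPM of IRF1 (both log axes), 1 point per hashtag pair; red points carry hashtag 1. Pair 1+2, with 57.9 CPM of IRF1, lay level with pairs 1+3, 1+4 and 1+6, whose IRF1 was 1322 to 1357 CPM. Pair 1+5, with 53.6 CPM of IRF1, lay in the lowest step in each panel.

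Read as an order of levels, neighbouring pairs often did not differ beyond counting error. Of the 17 neighbour comparisons, the ratio's interval left out 1 in 9 for CCN1, 5 for CCN2, 3 each for ANKRD1 and AMOTL2, 2 each for EDN1 and TCIM, and 1 for GPR183. In each of the 7 genes the boundary below the top step was among these. The boundary below the middle step was among them for CCN1, CCN2, ANKRD1 and AMOTL2, but not for EDN1, TCIM or GPR183. Within the lowest step, CCN1 was the only one of the 7 with neighbours apart.

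In the top pairs most cells had CCN1 and CCN2. For shares of cells, counts were drawn down to 10000 UMIs in every cell, and 5956 of the 6114 cells were deep enough; median depth in the pairs was 27824.5 to 32945 UMIs. CCN2 was found in 85.0% of thinned cells of pair 1+2 (80.7 to 88.8%; unthinned 95%) and in 5.32% of those of pair 4+7 (3.07 to 8.49%; unthinned 18.2%). CCN1 was found in 88.9% of thinned cells of pair 1+3 (unthinned 93.1%) and in 14.4% of those of 5+7 (unthinned 29.9%). ANKRD1 reached 58.3% in pair 1+2 and AMOTL2 51.1%, against lowest shares of 5.65% and 10.6%, both in pair 4+7. EDN1, TCIM and GPR183 stayed at or below 11.8%, 1.94% and 4.05% in every pair. The pool held no cell type that should lack these genes, so the share that free RNA alone would give was not measured.

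In the median cell of pair 1+2 CCN2 had 387 CPM, with quartiles at 185 and 692, and in the top step the median lay between 325 and 387 CPM; it was 0 in all 14 other pairs. The median cell had 275 to 313 CPM of CCN1 in the top step and 68.5 to 83.0 in the middle step, and 0 in the lowest. The 4 genes CCN1, CCN2, ANKRD1 and AMOTL2 were all found together in 27.1% of thinned cells of pair 1+2 (22.3 to 32.3%), where the product of their shares was 21.7%. All 4 were found in 19.4 to 22.4% of cells in the other top pairs, in 2.07 to 2.78% in the middle step and in 0 to 0.952% in the lowest, where pair 2+5 had 0 of 156 cells and pair 4+7 had 0 of 301.

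**Figure D3:**
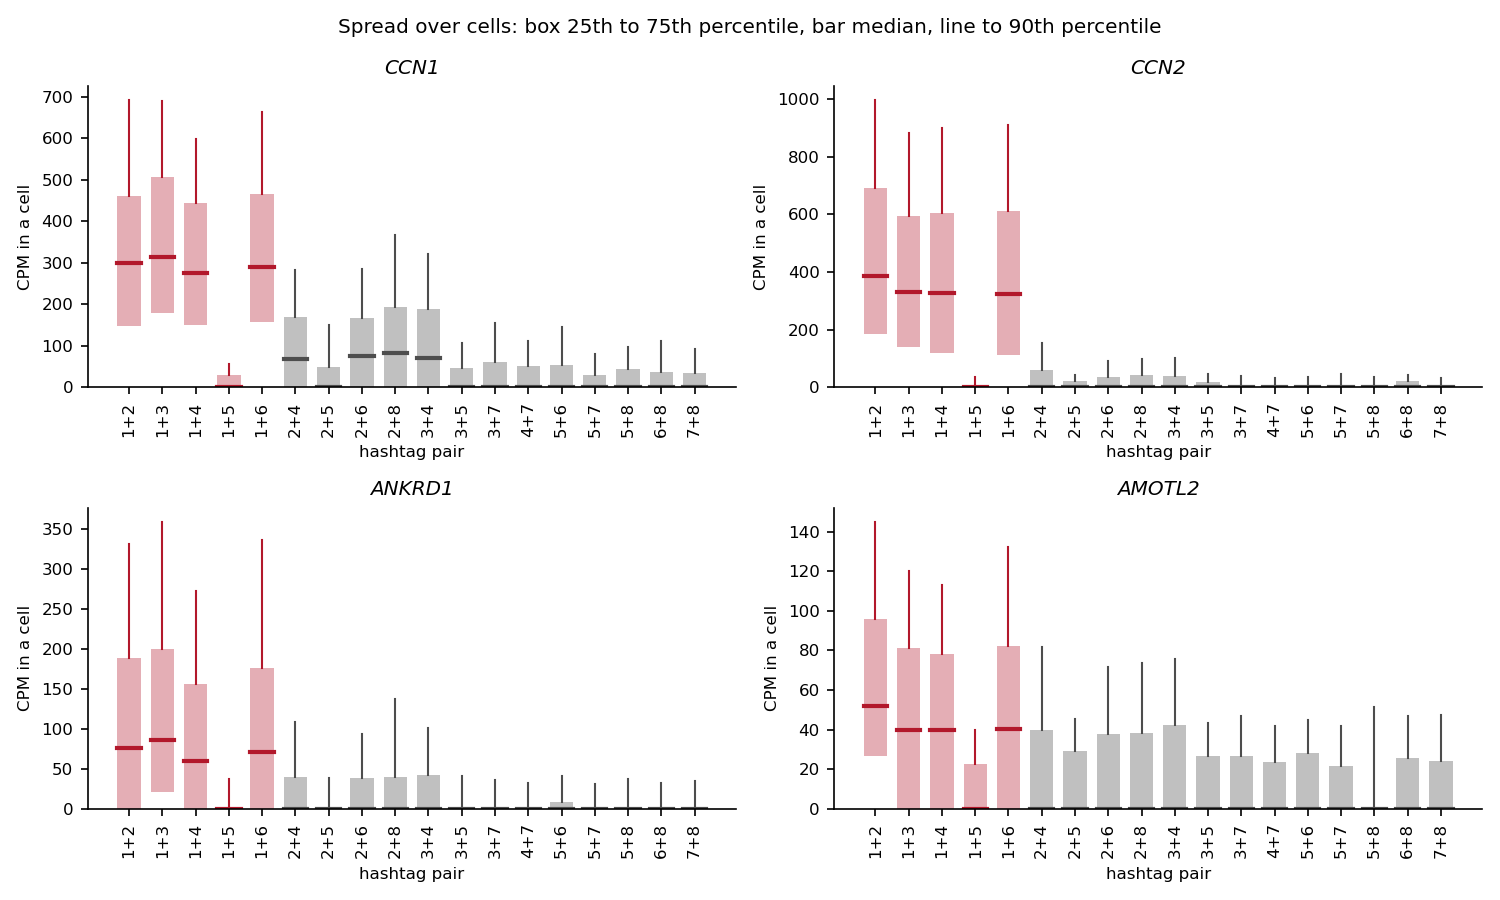
CPM of CCN1, CCN2, ANKRD1 and AMOTL2 in single cells, by hashtag pair; boxes run from the 25th to the 75th percentile of cells, bars are medians and lines reach the 90th percentile, with pairs of hashtag 1 in red. The median CCN2 level was 325 to 387 CPM in pairs 1+2, 1+3, 1+4 and 1+6 and 0 in the other 14.

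Within single pairs, cells with more of one of the 4 common genes had more of the others. Correlations were taken over the thinned cells of 1 pair at a time, so differences between pairs do not enter them, but all cells share a library and many counts are 0 or 1. Spearman's rho between CCN1 and ANKRD1 had a median of 0.255 over the 18 pairs (0.0749 to 0.367), between CCN2 and ANKRD1 0.214 (-0.0107 to 0.379) and between CCN1 and CCN2 0.208 (0.0550 to 0.412, positive in 18 of 18). It was 0.151 between CCN1 and AMOTL2, 0.123 between CCN2 and AMOTL2 and 0.119 between ANKRD1 and AMOTL2. For scale, the central 95% of medians over all 7565 other genes with at least 2000 UMIs ended at 0.0497 for CCN1, 0.0407 for CCN2, 0.0454 for ANKRD1 and 0.0388 for AMOTL2. Among those genes ANKRD1 ranked first for CCN1 and for CCN2, and CCN1 ranked first for ANKRD1. PLK2, which encodes polo-like kinase 2, was the gene outside the 7 that ranked highest for each of the 4, with medians of 0.229 with CCN1, 0.173 with CCN2, 0.188 with ANKRD1 and 0.160 with AMOTL2. EDN1 correlated weakly, with a median of 0.0573 with CCN1, and the counts of TCIM and GPR183 were too few for this reading.

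**Figure D4:**
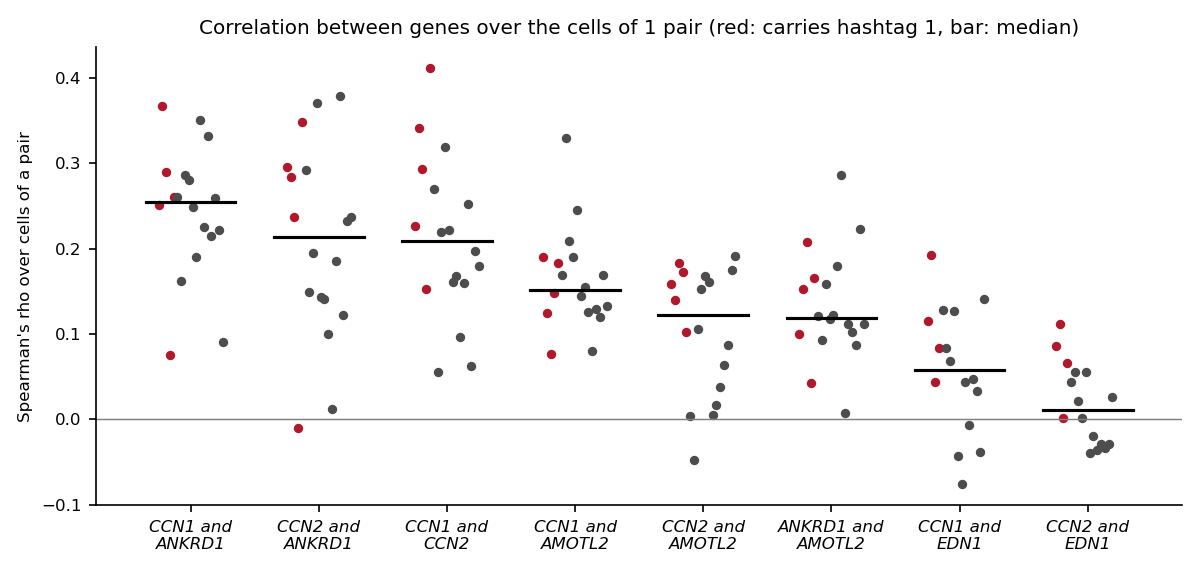
Spearman's rho between genes over the thinned cells of 1 hashtag pair, 1 point per pair, with the median as a bar and pairs of hashtag 1 in red. The medians run from 0.255 for CCN1 and ANKRD1 to 0.0113 for CCN2 and EDN1, and CCN1 with CCN2 was above 0 in 18 of 18 pairs.

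Correlations with technical measures and with IRF1 were closer to 0. Within pairs CCN1 had a median rho of 0.0849 with UMIs per cell, -0.0448 with the mitochondrial share and -0.00485 with IRF1, and CCN2 had 0.0340, 0.00643 and -0.00204. With the summed G2/M genes the medians were -0.0345 for CCN1, -0.0607 for CCN2, -0.0456 for ANKRD1 and -0.0805 for AMOTL2. With the summed S phase genes they were 0.0756 for CCN1 (positive in 17 of 18 pairs), 0.0255 for CCN2, 0.0490 for ANKRD1 (positive in 17 of 18) and 0.0124 for AMOTL2. The sum of the other YAP and TAZ targets had 0.182 with CCN1 (0.0869 to 0.242), 0.124 with CCN2 (0.0761 to 0.197), 0.156 with ANKRD1 (-0.00409 to 0.230) and 0.0808 with AMOTL2 (-0.0964 to 0.247). For CCN1, CCN2, ANKRD1 and AMOTL2 this was the highest median among the lists compared. For AMOTL2 the G2/M median of -0.0805 was nearly as large in size.

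Over the 18 pairs, the genes whose log2(CPM + 1) profile was most like the mean profile of the 7 were TIPARP (Pearson's r 0.982), PLK2 (0.973), LIF (0.970), RCAN1 (0.966), PDGFA (0.965), MYC (0.964), AJUBA (0.963), RHOB (0.961), SAMD4A (0.958) and UGCG (0.955), of 7562 genes with at least 2000 UMIs. TIPARP encodes an ADP-ribosyltransferase, LIF a cytokine, PDGFA a growth factor, RCAN1 a calcineurin inhibitor and AJUBA a junction protein that binds LATS kinases. MYC ran from 153 CPM in pair 1+2 to 34.8 CPM in 5+7 and was the gene most like CCN1 (0.989), ANKRD1 (0.984) and AMOTL2 (0.981) taken singly. PLK2, at 322 CPM in 1+2 and 55.4 in 7+8, was most like CCN2 (0.983). The genes most like EDN1, TCIM and GPR183 were PDGFA (0.965), RCAN1 (0.964) and RHOB (0.950). Since the 4 top pairs stood apart, such values rest largely on them. Over the 13 pairs without hashtag 1, MYC kept 0.966 with CCN1 and 0.963 with ANKRD1 and PLK2 kept 0.953 with CCN2, whereas RCAN1 had 0.726 with TCIM and RHOB 0.320 with GPR183.

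**Figure D5:**
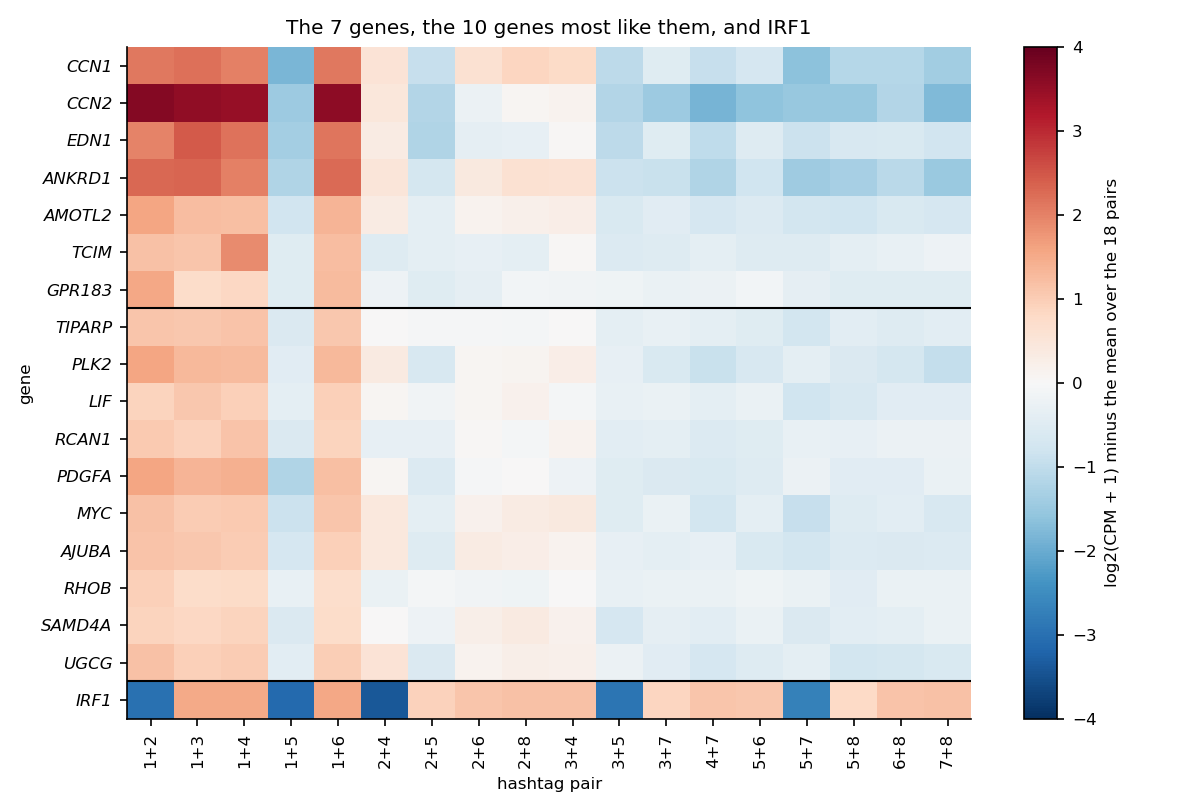
The 7 genes, the 10 genes most like their mean profile, and IRF1, as log2(CPM + 1) minus the gene's mean over the 18 hashtag pairs (red above the mean, blue below). The 17 upper rows share their red columns in pairs 1+2, 1+3, 1+4 and 1+6, and IRF1 is low in 1+2 and high in the other 3.

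Of a list of 18 other YAP and TAZ targets, most did not have the 4 top pairs above all others. Of the 16 with at least 100 UMIs, 4 spanned 4-fold (NUAK2, F3, CCDC80 and TGFB2), beside 14.5% of the 13921 genes. The list's median span was 2.25-fold beside 1.88-fold for the 13921 genes. NUAK2, a stress kinase, had 13.4 CPM in pair 1+6 and 1.18 in 5+7, a span of 11.4-fold (6.28 to 22.6). F3, tissue factor, had 124 CPM in pair 2+4, above the 86.2 to 113 CPM of the 4 pairs that were on top for the 7 genes, and 17.7 in 5+7. TGFB2 had 49.4 CPM in pair 1+2 and 8.51 in 5+6, but 40.2 CPM in pair 2+4, level with pair 1+3. By contrast AXL and NT5E were highest in pairs 1+5 and 2+5, with 157 and 239 CPM, and lowest in pair 1+6, with 91.1 and 168 CPM. LATS2, GADD45A and ARHGEF17, 3 of the 16, had the 4 pairs above all others, beside 5.57% of the 13921 genes. These 3, like AXL and NT5E, were named after their values were seen.

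Hippo pathway and TEAD genes had spans close to those of all genes. Among the 24 listed, 2 spanned 4-fold (VGLL3 and AMOT, both with under 300 UMIs and named after their values were seen), beside 14.5% of the 13921 genes, and the median span was 1.84-fold beside 1.88-fold. Of the 24, 4 had the 4 top pairs above all others, beside 5.57% of the 13921 genes. YAP1 had 46.6 CPM in pair 1+5 and 32.4 in pair 2+6, and WWTR1, which encodes TAZ, had 101 in 1+2 and 60.4 in 2+6. LATS2, a YAP kinase that is itself a YAP target and stands in both lists, had 43.1 to 47.4 CPM in the 4 top pairs and 14.5 to 24.7 CPM in the other 14. FRMD6 and WWC1, upstream regulators, were highest in pair 2+4, with 27.1 and 31.4 CPM, and lowest in pair 7+8, with 8.33 and 10.4 CPM. TEAD2 had 5.89 CPM in pair 1+5 and 1.82 in 4+7. TEAD4 ran the other way, with 69.1 CPM in pair 5+6 and 34.2 in pair 1+2.

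Of the other matricellular genes, none of the 7 with at least 100 UMIs had the 4 top pairs above all others, beside 5.57% of the 13921 genes. A list of 7 genes would often hold none at that share, so nothing is read from this count. Of the 7, 4 spanned 4-fold, beside 14.5% of the 13921 genes. THBS1, thrombospondin-1, came nearest, with 89.0 to 104 CPM in the 4 top pairs but 106 in pair 2+4, and 13.9 in 7+8. TNC, tenascin-C, was highest in pair 2+5, at 31.0 CPM, and lowest in 2+4, at 7.10. SPP1, osteopontin, had 8.66 CPM in pair 1+4 and 0.927 in 2+5, and CCN3 had 9.21 in 1+5 and 3.23 in 3+7, highest where CCN1 was lowest. CCN4, CCN5 and CCN6 had 0, 49 and 8 UMIs.

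For EDN1 and GPR183 some partners were scarce in these cells and others were not. ECE1, the enzyme that cleaves the endothelin precursor, had 33.2 to 44.5 CPM in the pairs, a span of 1.34-fold (1.13 to 1.60), while the receptor genes EDNRA and EDNRB had 38 and 0 UMIs and the ligand gene EDN2 had 52. Of the enzymes that make or break down the ligand of GPR183, CH25H had 58 UMIs and CYP7B1 had 83. HSD3B7 had 9.44 CPM in pair 7+8 and 4.39 in 3+5, a span of 2.15-fold (1.57 to 2.96).

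Other lists share regulators with the 7 genes, and their counts are to be read beside the 14.5% of all 13921 genes that spanned 4-fold and the median span of 1.88-fold. SRF and MRTF targets spanned 4-fold in 3 of 16 genes, with a median span of 2.17-fold. SRF itself had 13.9 CPM in pair 1+6 and 3.25 in 5+7, and TAGLN had 6.68 in 2+4 and 1.11 in 5+8. ACTA2 had 8.79 CPM in 7+8 and 1.54 in 2+4. TPM1, just under 4-fold, had 543 CPM in 2+4 and 136 in 7+8. TGF-beta targets spanned 4-fold in 4 of 11 (median span 3.11-fold). SMAD7, an inhibitor of TGF-beta signalling, had 10.1 CPM in 1+3 and 2.18 in 1+5 and showed both steps. Immediate early genes spanned 4-fold in 7 of 17 (median span 3.46-fold), led by EGR1, highest in pair 1+5 at 9.21 CPM and lowest in 5+6 at 0.284, and ATF3, at 18.4 CPM in 1+3 and 0.896 in 1+5. DUSP1, a phosphatase of MAP kinases, had 55.6 CPM in 1+6 and 6.20 in 5+7 and followed both steps. The interferon-gamma list spanned 4-fold in 16 of 16 genes, led by CXCL9 and GBP5, and the housekeeping, S phase and G2/M lists in 0 of 12, 0 of 22 and 0 of 25. The 4 top pairs lay above all others in 4 of 16 SRF and MRTF targets. They did so in 5 of 11 TGF-beta targets and 4 of 17 immediate early genes, beside 5.57% of the 13921 genes. None of the interferon-gamma, housekeeping, S phase and G2/M genes had this. Both steps were found in 3 of 16 SRF and MRTF targets, 1 of 11 TGF-beta targets and 3 of 17 immediate early genes. Of the 13921 genes, 1.01% had both steps.

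Several summed levels moved with the top step, or with the top and middle steps together, and their part in the results was not tested. Summed immediate early genes, MYC and DUSP1 included, were 1462 to 1489 CPM in the 4 top pairs and 781 to 1182 in the other 14. Summed TGF-beta targets were 1482 to 1713 CPM in the top step and 1129.9 to 1406 in the others. Summed SRF and MRTF targets were 6689 to 7071 CPM in the top step, 6780 to 7468 in the middle and 4498 to 6578 in the lowest. Summed S phase genes were 1328 to 1524 CPM in the top step and 1655 to 1941 in the others, and summed G2/M genes were 3210 to 3858 CPM in the top step, 2862 to 3548 in the middle and 3950 to 5055 in the lowest. Median depth was 27824.5 to 29037 UMIs in the top step and 29020 to 32945 in the others. The 12 epithelial markers, of which 0 were at 0 UMIs, summed to 5512 to 5696 CPM in the top step and 3378 to 5421 in the others. The 9 fibroblast markers summed to 0.921 to 1.77 CPM in the top step and 0.352 to 1.15 in the others, with COL1A2 and THY1 at 0 and 165 UMIs of COL1A1. Endothelial, T cell and B cell markers stayed under 1 CPM in sum in every pair, with 1 of 6, 4 of 7 and 2 of 5 at 0. Mesothelial markers summed to 30.7 to 36.0 CPM in the top step and 26.9 to 53.1 in the others, and myeloid markers to 34.5 to 36.9 and 28.2 to 43.2. CALB2 (9284 UMIs over all kept cells) held most of the mesothelial sum, and MSLN had 41 UMIs. CD68 (6913) and CD14 (1121) held most of the myeloid sum, while PTPRC had 2 UMIs and TYROBP 0.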

How the data were processed

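The deposited matrix holds raw UMI counts per gene and barcode, with 8 hashtags. Per the file headers the matrix comes from Cell Ranger 5.0.1, while version 2.1.1 and GRCh38 stand in the submitters' processing notes; the method of barcode calling was not given in the sources used here. All 7804 barcodes were distinct. Kept cells had 500 or more genes and no more than 20% mitochondrial UMIs (603 barcodes removed). A pair is the 2 highest hashtags where the second held at least 5 times the third plus 1 UMI, which 1087 cells failed; this removes many doublets across pairs but none within a pair, and doublets were not called otherwise.

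Counts were summed over the cells of a pair. CPM intervals are exact Poisson, shares exact Clopper-Pearson and ratios exact conditional, all at 95% and for counting error only. Spans set the lowest count to at least 3. Cells under 10000 UMIs (158) were left out of thinned values. List counts used genes with at least 100 UMIs and likeness used at least 2000 (pseudocount 1). Reads of overlapping genes cannot be told apart in these counts. The 7 genes, the gene lists and the steps of pairs were chosen with earlier results of these data known. Genes named are the 7, up to 4 per list with the widest span among those with at least 500 UMIs, the most alike genes and IRF1; exceptions are marked or were named as pathway partners. Promoters are from RefSeq. Calculations used Python 3.11.15, numpy 2.4.6, scipy 1.17.1 and pandas 2.3.3, and were tested on simulated data. Other cell filters, hashtag rules, thinning depths, thresholds and the removal of outlying cells were tried.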

Additional observations from a re-analysis of the deposited data

Results flagged for a closer look

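Barcodes outside the 18 pairs also held these RNAs. The 1087 cells without a pair, with a median of 51617 UMIs, had 106 CPM of CCN1 and 84.6 CPM of CCN2, far above the level of 3 UMIs (0.0568 CPM), and between the highest and lowest pairs. The 603 barcodes that failed the cell filter, with a median of 5200 UMIs, had 68.6 CPM of CCN1 and 73.8 CPM of CCN2, above 0.756 CPM for 3 UMIs. Over non-mitochondrial UMIs alone these were 163 and 175 CPM in the failed barcodes and 134 and 114 CPM in the paired cells.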

How the results depend on the processing

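Of 55 recomputed spans of the 7 genes, 48 stayed inside the counting interval of the reported span. However, 19 of the 55 were lower bounds: all 7 for TCIM, all 8 for GPR183 and 4 of 8 for EDN1. A bound inside an interval does not show that the span held, and the interval of GPR183 ran from 2.53 to 41.7. Leaving out the 5% of cells of each pair with most UMIs of the gene gave 25.4 for CCN1, 99.03 for CCN2, 29.2 for ANKRD1, 7.42 for AMOTL2 and, as a bound, 1.68 for GPR183; TCIM gave no value there. Thinning to 10000 UMIs gave bounds of 15.8 for EDN1, 3.75 for TCIM and 3.46 for GPR183. In both settings 5 of the 7 genes spanned 4-fold. The count of 2021 genes spanning 4-fold was 261 at a minimum of 2000 UMIs, 6301 at 2-fold and 370 at 8-fold. CCN2 in pair 1+2 was found in 95% of unthinned cells and 73.6% of cells thinned to 5000 UMIs. The within-pair correlation of CCN1 and CCN2 was 0.383 without thinning. Of the 10 genes most like the 7, only MYC (1 gene) remained when the pairs with hashtag 1 were left out, and likewise 1, MYC, with Spearman's rho. The causes were not tested. No paired analysis was possible because the pool is 1 sample with no replicate numbers. Depth limits TCIM and GPR183, which had 1 to 7 and 0 to 4 UMIs in their lower 14 pairs.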
